A study of Yarrowia lipolytica CLIB122 with 6 samples.

Results

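The 66 transcripts described here carry identifiers that begin with BGI_novel. The prefix is not explained in the sources used here. BGI is the institute that sequenced the libraries, and such names are commonly given to transcripts assembled from reads outside the annotated genes. The members were chosen by that prefix alone, with no use of their levels, and make up 66 of the 6452 transcripts in the table, or 1.02%. The other 6386 transcripts carry an NCBI gene number. The identifiers run from G000001 to G000066 with no number missing, and BGI_novel_G000039 is written as G000039, and the others likewise. No sequence, length, position or function is paired with these identifiers, so each member is described by its level alone.

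RNA-Seq was performed on 6 libraries of the yeast Yarrowia lipolytica, 3 labelled A24 and 3 labelled C24, from cells grown for 24 h in rich YPD medium. The study compared YlΔA1-FAR, in which the A1 gene (YALI0_A00913g) was disrupted with CRISPR/Cas9, with the control WT-FAR. A24 is read as YlΔA1-FAR and C24 as WT-FAR from their letters, a reading that no label states. Both strains carry FAR, the fatty acyl-CoA reductase gene of Marinobacter aquaeolei VT8, driven by the TEFin promoter at the IntF site with LEU2 as marker, in the background strain ATCC 201249, which carries MATA, ura3-302, leu2-270, lys8-11 and PEX17-HA. The labels instead name the organism as strain CLIB122, and the mismatch was not resolved here. The level of the A1 transcript was not analysed here, because its locus tag is not paired with a gene number, so the labels were not checked against the disrupted gene. Each strain is 1 construct. The study describes the samples of its growth and RNA-Seq experiment as biological replicates, while no label says how the cultures were kept apart, and the p-values cover the spread between these libraries only.

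Y. lipolytica is an oleaginous yeast, which stores lipid and is used as a host for fatty acid derivatives such as fatty alcohols. Transcripts that an assembly places outside the annotated genes of a yeast can be noncoding RNAs, short reading frames that annotation missed, antisense RNAs, mobile elements, or extended ends of known genes. Libraries made after removal of rRNA, as here, keep RNAs without a poly(A) tail that a poly(A) selection would lose. The strand setting of the libraries is not given in the sources used here, so reads shared with an overlapping or antisense neighbour could not be told apart from reads of the member.

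The levels, in FPKM (fragments mapped to a transcript, scaled to its length and to the mapped fragments of the library), spanned a wide range. By the mean over the 6 libraries, 3 members had 1000 FPKM or more, 8 had 100 to under 1000 FPKM, 25 had 10 to under 100 FPKM, 21 had 1 to under 10 FPKM and 9 had under 1 FPKM. Members were more often low than the numbered transcripts. A mean under 10 FPKM was found for 13.6% (under 1 FPKM) and 31.8% (1 to under 10 FPKM) of members, against 6.12% and 13.7% of numbered transcripts. The median of the means was 14.8 FPKM for the members and 42.5 FPKM for the numbered transcripts. At the high end the shares were alike, 4.55% of members and 4.4% of numbered transcripts at 1000 FPKM or more. The most abundant members, G000055, G000039 and G000024, stood at ranks 85, 97 and 230 of all 6452 transcripts.

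**Figure D1:**
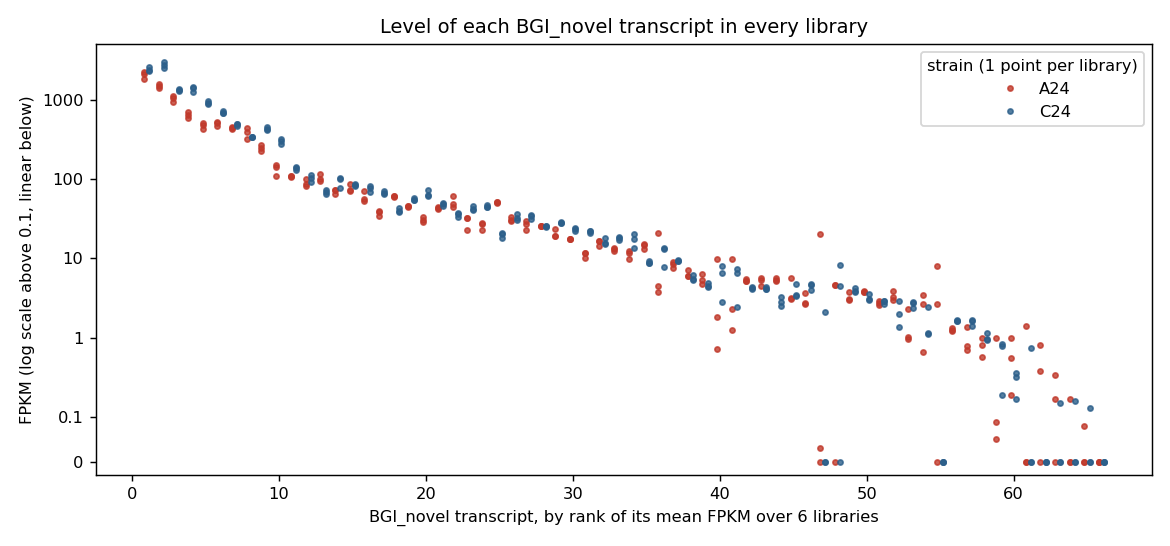
FPKM of each of the 66 BGI_novel transcripts in the 6 libraries (1 point per library, A24 left of C24), with transcripts ordered along the x axis by the rank of their mean. The y axis is logarithmic above 0.1 FPKM and linear below, so that values of 0 can be shown. The A24 points lie below the C24 points for 9 of the 10 most abundant members, and the points of a strain spread widest among members near or under 10 FPKM.

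Detection at 1 FPKM differed little between libraries, while members at 0 were fewer in A24, with 4 to 5 per library against 6 to 7 in C24. Between 53 and 57 members reached 1 FPKM in the A24 libraries, against 55 to 56 in the C24 libraries. In all 6 libraries 57 members were above 0, 8 were at 0 in some libraries, and G000043 was listed at 0 in every library.

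The members held a smaller share of the FPKM total in A24. Their share was 0.705%, 0.679% and 0.619% in the 3 A24 libraries, against 1.07%, 0.951% and 0.994% in the 3 C24 libraries. The mean was 0.668 ± 0.044% in A24 and 1.00 ± 0.058% in C24 (SD, n = 3 each), and the strains did not overlap. The summed level was 8536 ± 444 FPKM in A24 and 12236 ± 608 FPKM in C24 (SD, n = 3 each), a ratio of 0.698. The totals of the libraries moved the other way, 1266078 to 1303563 FPKM in A24 and 1208546 to 1226334 FPKM in C24.

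Most of this difference in FPKM lay in a few abundant members, while the share of the others was lower in A24 as well. The 4 most abundant, G000055, G000039, G000024 and G000036, held 59.2 to 62.4% of the members' FPKM in A24 and 63.1 to 64.3% in C24. The net difference in summed level, A24 minus C24, was -3699.72 FPKM, of which G000039 made up 33.4%, G000036 19.2%, G000054 11.9%, G000055 10.2% and G000024 7.35%. These 5 transcripts together accounted for 82.0% of the net difference. Without the most abundant member the share was 0.508% in A24 and 0.805% in C24, and without the 4 most abundant it was 0.261% in A24 and 0.365% in C24, so A24 stayed lower.

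**Figure D2:**
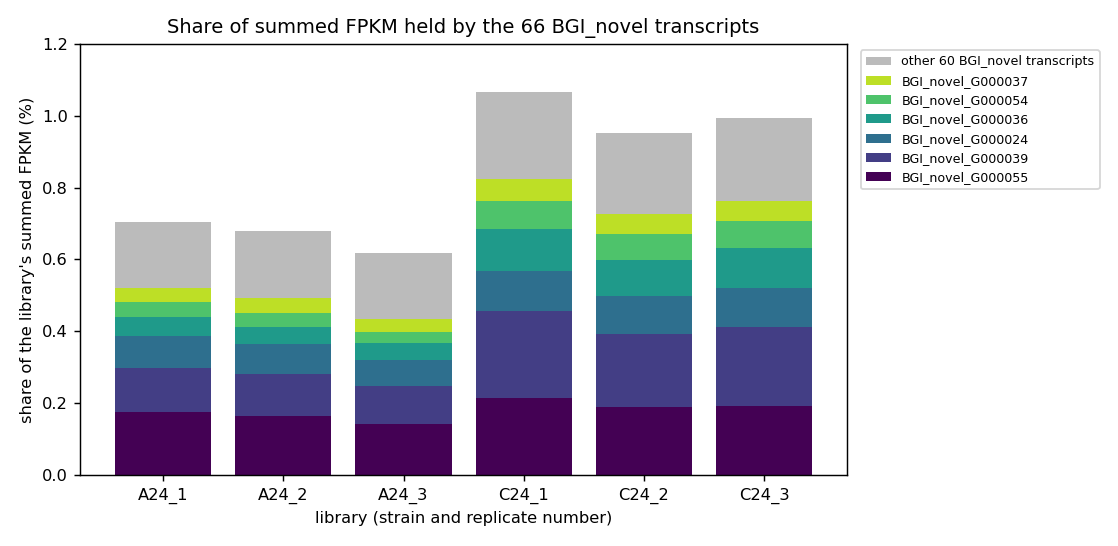
Share of each library's FPKM total held by the BGI_novel transcripts, in percent, with A24 libraries left of C24 libraries. Each bar stacks the 6 most abundant members in colour and the other members in grey. The whole bars reach 0.619 to 0.705% in A24 and 0.951 to 1.07% in C24.

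The order of the leading transcripts changed with the strain. G000055 was the highest member in each A24 library, and G000039 was the highest in each C24 library. The level of G000039 over that of G000055 was 0.700, 0.711 and 0.775 in A24, against 1.14, 1.09 and 1.14 in C24. The mean ratio was 0.729 ± 0.040 in A24 and 1.12 ± 0.032 in C24 (SD, n = 3 each). A two-sided exact permutation test gave p = 0.1, the smallest that 3 libraries against 3 allow. This ratio was chosen after its values were seen to lie apart, so the test could not have given another p and adds nothing to them.

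For the comparison of the strains, log2(FPKM + 0.1) was fitted with limma for the 6052 transcripts that averaged 1 FPKM or more, among them 57 members. Of the 57, 5 passed both an adjusted p under 0.05 and a log2 fold change beyond 1, or 8.77%, near the 6.56% of all transcripts tested. G000008 and G000034 were higher in A24 (background 3.85%), of which G000034 reached 1 FPKM through its A24 libraries alone, and G000036, G000040 and G000042 were lower (background 2.71%). With the adjusted p alone, 36 members passed, or 63.2% (background 67.2%). Of these, 9 were higher in A24, or 15.8% (background 26.8%), and 27 were lower, or 47.4% (background 40.4%). The 27 include G000047, named after its values were seen, which averaged 0.957 FPKM in A24 and 1.58 FPKM in C24. It thus reached 1 FPKM through its C24 libraries, the strain in which it was higher, and is also among the members without overlap below. The libraries of the strains did not overlap for 39 members, or 68.4% (background 71.3%). Of these, 10 were higher in A24 (background 28.3%) and 29 were lower (background 43.1%).

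The count of 5 depended on the libraries and the scaling. It was 4, with 1 higher in A24, without the members at 0 in any library, a choice made after seeing the data. It was 9 without A24 replicate 3 (background 6.46%), where G000004, G000005, G000027, G000031 and G000058 passed and G000034 did not. It was 3 without C24 replicate 1 (background 6.38%), where G000034 and G000042 did not pass. Median-of-ratios scaling, which raises the median log2 fold change of all transcripts tested by 0.09, gave 2 members higher (background 4.49%) and 1 lower (background 2.18%) past both thresholds, and 14 higher (background 34.1%) and 21 lower (background 31.4%) with the adjusted p alone. With every library scaled to the same FPKM total, 2 were higher (background 3.39%) and 5 lower (background 3.19%) past both thresholds, and 8 were higher (background 22.1%) and 31 lower (background 49.1%) with the adjusted p alone.

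By their medians, the members differed by larger amounts than all transcripts tested and more towards lower levels in A24, which was described and not tested over the set. Their median log2 fold change was -0.30 (quartiles -0.59 and 0.16), against -0.09 (quartiles -0.31 and 0.19) for all transcripts tested. The log2 fold change was negative for 39 of the 57, or 68.4%, against 59.5% of all transcripts tested. The median size of the log2 fold change, without its sign, was 0.45 for members and 0.27 for all transcripts tested. The standard error was also larger, with a median of 0.098 for members and 0.059 for all transcripts tested.

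The split of the calls differed between levels, which was described and not tested. Of the 11 members with a mean of 100 FPKM or more, 10 fell in A24 and 0 rose by the adjusted p, with a median log2 fold change of -0.46. Of all 1907 transcripts at these levels, 42.6% fell and 31.3% rose, with a median of -0.06. Under median-of-ratios scaling 8 of the 11 fell and 1 rose, beside 31.0% of all transcripts at these levels that fell. Without C24 replicate 1, 8 fell (background 39.8%), and without A24 replicate 2, 9 fell (background 39.6%). Without A24 replicate 1, 10 fell (background 41.8%) and 1 rose. With any other single library left out, 10 fell and 0 rose. Of the 25 members from 10 to under 100 FPKM, 14 fell and 5 rose, with a median of -0.34. The share of all 3252 transcripts at those levels was 40.8% that fell and 24.9% that rose. Of the 21 members from 1 to under 10 FPKM, 3 fell and 4 rose, with a median of 0.01, beside 34.3% and 24.0% of all 893 transcripts in that range.

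Among the abundant members, G000036 differed past both thresholds. Its level was 688.01, 630.14 and 593.01 FPKM in A24, against 1420.13, 1240.41 and 1385.37 FPKM in C24. The highest A24 library thus lay far below the lowest C24 library. The means were 637.1 ± 47.9 FPKM in A24 and 1349 ± 95.3 FPKM in C24 (SD, n = 3 each), and the log2 fold change was -1.08 (SE 0.066, limma adjusted p = 1.35e-06). Under median-of-ratios scaling it was -0.99, inside the threshold of 1.

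G000040 fell furthest among the members whose libraries did not overlap. It had 139.58, 149.74 and 110.18 FPKM in A24, against 316.15, 296.38 and 278.72 FPKM in C24. The level in A24 was 0.448 times that in C24 (log2 fold change -1.17, SE 0.10, limma adjusted p = 1.23e-05). It passed both thresholds in each alternative that was run. G000042, a member of middling level, had 30.65, 33.46 and 28.94 FPKM in A24, against 71.88, 60.58 and 62.43 FPKM in C24. Its log2 fold change was -1.06 (SE 0.077, limma adjusted p = 3.94e-06), -0.97 under median-of-ratios scaling and -0.99 without C24 replicate 1, the 2 settings in which it lay inside the threshold.

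Several transcripts fell by nearly as much. G000054 had 508.19, 482.92 and 423.74 FPKM in A24, against 947.78, 878.73 and 907.65 FPKM in C24 (log2 fold change -0.95, SE 0.065, limma adjusted p = 2.54e-06). G000021 had 10.28, 11.73 and 11.58 FPKM in A24, against 22.02, 20.70 and 22.46 FPKM in C24 (log2 fold change -0.95, SE 0.075, limma adjusted p = 6.48e-06). The A24 levels of these members were 0.517 and 0.515 times the C24 levels. With equal FPKM totals both had a log2 fold change of -1.02 and passed the threshold, and G000054 also did without A24 replicate 1, at -1.01.

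G000039, the highest member in C24, fell by the largest amount in FPKM. It had 1553.81, 1470.76 and 1415.30 FPKM in A24, against 2938.15, 2513.11 and 2692.73 FPKM in C24. The means were 1480.0 ± 69.7 FPKM in A24 and 2715 ± 213 FPKM in C24 (SD, n = 3 each), with a log2 fold change of -0.87 (SE 0.061, limma adjusted p = 3.13e-06). G000066 had 270.06, 245.75 and 224.98 FPKM in A24, against 450.86, 418.32 and 428.80 FPKM in C24, and its log2 fold change was -0.81 (SE 0.064, limma adjusted p = 6.41e-06). In both, no A24 library came near the lowest C24 library. G000059 and G000012, named after their values were seen, fell by similar amounts at lower levels. G000059 averaged 37.7 ± 2.87 FPKM in A24 and 67.2 ± 3.27 FPKM in C24. G000012 averaged 26.0 ± 2.56 FPKM in A24 and 45.2 ± 1.95 FPKM in C24 (SD, n = 3 each).

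**Figure D3:**
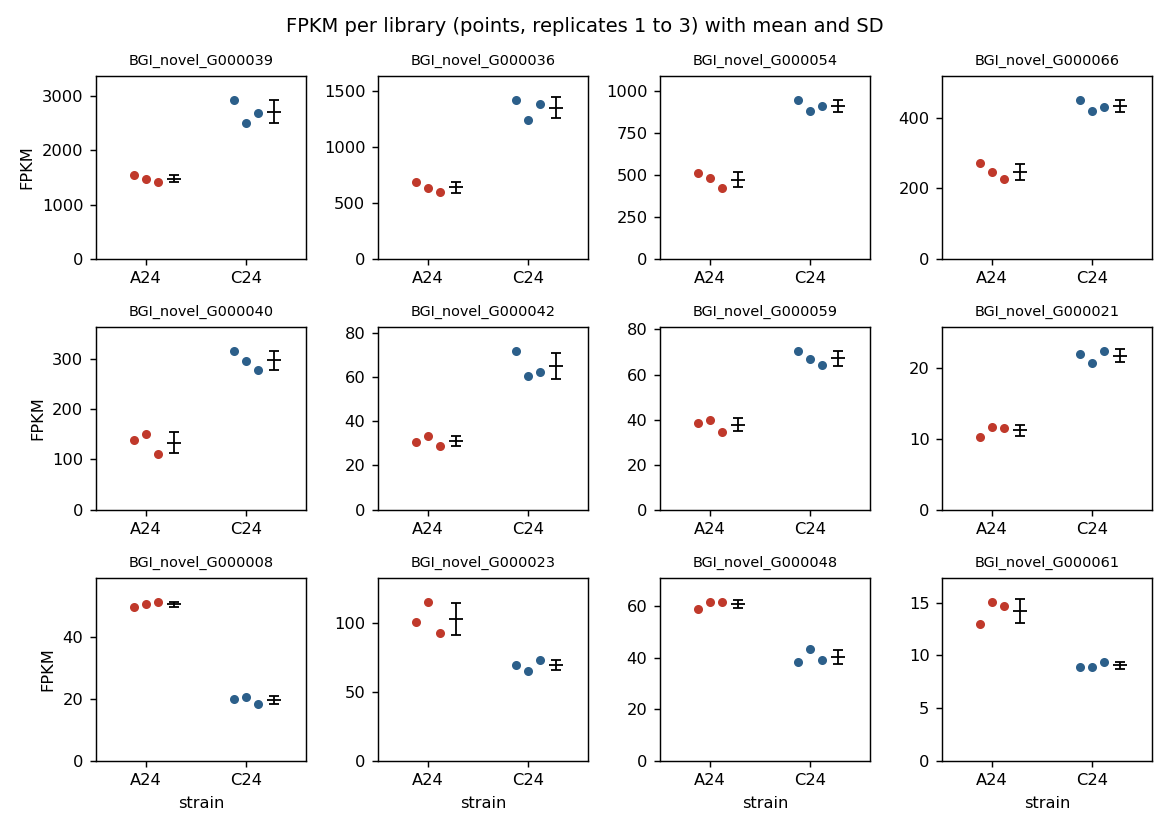
Levels in each library, in FPKM on linear axes that start at 0, for 12 members past the adjusted p, with A24 points left of C24 points and the mean ± SD beside each group (n = 3 each). In the 8 members of the upper and middle panels each A24 point lies below each C24 point, and in G000008, G000023, G000048 and G000061 each A24 point lies above.

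Other abundant members fell by less than these. G000055 had 2220.19, 2067.95 and 1826.43 FPKM in A24, against 2568.54, 2312.25 and 2362.83 FPKM in C24. Its log2 fold change was -0.25 (SE 0.072, limma adjusted p = 0.0132), and it missed the threshold without C24 replicate 1 (-0.20, limma adjusted p = 0.0550) and under median-of-ratios scaling (-0.16, limma adjusted p = 0.0962). G000024 had 1123.74, 1057.04 and 940.89 FPKM in A24, against 1348.30, 1287 and 1302.62 FPKM in C24 (log2 fold change -0.34, SE 0.061, limma adjusted p = 0.00106). The strains lay apart in both transcripts, by less in proportion than in G000039.

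G000037 had 524.15, 513.06 and 468.54 FPKM in A24, against 726.03, 672.45 and 675.94 FPKM in C24 (log2 fold change -0.46, SE 0.052, limma adjusted p = 5.62e-05). G000035 had 451.22, 425.99 and 436.61 FPKM in A24, against 485.82, 464.84 and 488.15 FPKM in C24. The gap between the strains was narrow in G000035 (log2 fold change -0.13, SE 0.038, limma adjusted p = 0.0136). It missed the threshold without A24 replicate 2 (limma adjusted p = 0.0539), without C24 replicate 1 (adjusted p = 0.0544) and under median-of-ratios scaling (-0.04, adjusted p = 0.332). G000033 had 318.86, 387.01 and 442.52 FPKM in A24, against 341.73, 341.33 and 333.97 FPKM in C24. It was the exception among the abundant members, since its A24 libraries spread around the tight C24 libraries. Its log2 fold change was 0.16 (SE 0.098, limma adjusted p = 0.167). It passed without A24 replicate 1 (0.29, limma adjusted p = 0.00290) and under median-of-ratios scaling (0.25, adjusted p = 0.0492).

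Among the members that rose, G000008 stood apart. Its libraries held 49.54, 50.67 and 51.22 FPKM in A24, against 20.06, 20.71 and 18.23 FPKM in C24. The A24 level was 2.57 times the C24 level, and the libraries of each strain lay close together. The log2 fold change was 1.36 (SE 0.060, limma adjusted p = 1.71e-07), past both thresholds in each alternative that was run.

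Lower levels were involved in the next largest rises. G000015 had 5.4, 5.61 and 5.27 FPKM in A24, against 2.84, 2.53 and 3.28 FPKM in C24 (log2 fold change 0.90, SE 0.13, limma adjusted p = 0.000269). G000044 had 3.02, 3.24 and 3.93 FPKM in A24, against 1.36, 2 and 2.94 FPKM in C24 (log2 fold change 0.72, SE 0.26, limma adjusted p = 0.0311). In G000044 the closest libraries were only 3.02 and 2.94 FPKM, and it missed the threshold of the limma test with no filter (adjusted p = 0.0568), without A24 replicates 2 or 3 (adjusted p = 0.0556 and 0.0958) and without C24 replicates 1 or 2 (adjusted p = 0.0912 and 0.0721). Leaving out C24 replicate 1 lowered its log2 fold change to 0.46.

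G000061 had 12.97, 15.09 and 14.66 FPKM in A24, against 8.86, 8.88 and 9.42 FPKM in C24 (log2 fold change 0.65, SE 0.082, limma adjusted p = 0.000124). G000048 had 59.14, 61.79 and 61.72 FPKM in A24, against 38.30, 43.44 and 39.13 FPKM in C24 (log2 fold change 0.60, SE 0.057, limma adjusted p = 2.18e-05). Both lay about as high over C24 as G000023, named after its values were seen, with 103.1 ± 11.4 FPKM in A24 and 69.4 ± 3.70 FPKM in C24 (SD, n = 3 each).

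Between these cases lay the members that passed the adjusted p with a difference of less than 2-fold. There were 31 of them (background 60.6%), 24 lower (background 37.7%) and 7 higher in A24 (background 22.9%). Of the 24, 7 had a log2 fold change below -0.75, 4 lay from -0.75 to -0.5 and 13 lay between -0.5 and 0. The 4 include G000047, which reached the filter of 1 FPKM through C24. In 1 of the 24 the strains overlapped, namely G000018, with 70, 55.34 and 52.62 FPKM in A24, against 81.06, 76.18 and 68.01 FPKM in C24, named after its values were seen. Its limma adjusted p was 0.0162, and 0.0549, 0.0511, 0.0632 and 0.0552 without A24 replicate 3, A24 replicate 2, C24 replicate 1 and C24 replicate 2. Under median-of-ratios scaling it was 0.0599, with a log2 fold change of -0.26. The 7 higher ones had log2 fold changes between 0.31 and 0.90 and means between 2.75 and 86.2 FPKM.

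For 21 members the adjusted p missed the threshold, from 0.0620 to 0.967 by limma, and in 16 of them the strains overlapped. The smallest differences were those of G000029, G000026, G000022, G000020 and G000057, with log2 fold changes of 0.01, 0.02, -0.04, -0.05 and -0.08. G000026 had 25.84, 25.54 and 25.72 FPKM in A24, against 25.58, 25.22 and 25.40 FPKM in C24. It was among the steadiest of all transcripts tested, at rank 6048 of 6052 by its spread between libraries of a strain. All 6 libraries lay between 25.22 and 25.84 FPKM, and the standard error of its log2 fold change was 0.049.

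The other 4 members with small log2 fold changes spread more between libraries. G000022 had 14.39, 16.65 and 16.61 FPKM in A24, against 18.04, 15.60 and 15.41 FPKM in C24. G000057 had 30.17, 30.03 and 33.19 FPKM in A24, against 36.33, 32.12 and 30.16 FPKM in C24. In both, the A24 libraries lay within or beside the C24 range. G000020 had 2.75, 2.56 and 2.91 FPKM in A24, against 2.91, 2.70 and 2.91 FPKM in C24. G000029 had 3.12, 3.18 and 5.76 FPKM in A24, against 3.49, 3.37 and 4.74 FPKM in C24, with replicate 3 the highest of each strain. By its spread between libraries of a strain G000029 was at rank 117 of 6052, among the more variable transcripts.

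Of the 8 members at 0 in some libraries, 3 passed the filter of 1 FPKM. G000034 had 8.08, 0 and 2.65 FPKM in A24 and was listed at 0 in all 3 C24 libraries. It was called higher in A24 by limma (adjusted p = 0.0357), although 1 of its A24 libraries was at 0 as well, and no fold is given against a strain at 0. It passed the filter only through A24, the strain in which it was higher, and with no filter the limma adjusted p was 0.0765. The adjusted p ranged from 7.75e-05 to 0.142 over the alternatives. The call was lost without A24 replicate 1 (0.142), without A24 replicate 3 (0.106) and without C24 replicates 1, 2 or 3 (0.0734, 0.0842 and 0.0654).

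G000016 had 0.03, 20.20 and 0 FPKM in A24, against 0, 2.11 and 0 FPKM in C24. Its level lay nearly wholly in replicate 2 of each strain, and limma gave an adjusted p of 0.611. G000051 had 4.61, 0 and 4.67 FPKM in A24, against 0, 8.26 and 4.55 FPKM in C24, with an adjusted p of 0.908 by limma. Both were thus at 0 in some libraries and above 0 in others of each strain.

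The other 5 had a mean under 1 FPKM and were not tested. G000003 had 1.42 FPKM in A24 replicate 3 and 0.74 FPKM in C24 replicate 3, and was at 0 in the other 4 libraries. G000009 had 0.82 and 0.38 FPKM in A24 replicates 1 and 2 and was at 0 in A24 replicate 3 and in all 3 C24 libraries. G000025 had 0.34 and 0.17 FPKM in A24 replicates 2 and 3 and 0.15 FPKM in C24 replicate 3. With so many libraries at 0, no comparison of the strains was made. G000014 and G000063 did not pass 0.2 FPKM in any library. Beside G000043, the remaining untested members were G000002, G000011 and G000053, which were above 0 in each library, overlapped between the strains and averaged 0.917 FPKM at most.

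By the medians, libraries of 1 strain agreed less well in the members than in the numbered transcripts. The median coefficient of variation over the 3 libraries was 9.19% for members and 4.85% for numbered transcripts in A24, and 6.33% and 4.29% in C24. The gap remained among transcripts that averaged 10 FPKM or more, at 8.01% for members and 4.41% for numbered transcripts in A24, and 5.10% and 3.87% in C24. A coefficient over 50% was found for 8 members in A24, or 14.0%, and for 0.417% of the numbered transcripts. In C24 it was found for 2 members, or 3.51%, and for 0.434% of the numbered transcripts. These members averaged 10.6 FPKM at most, and the shares with a coefficient over 50% were not compared at matched levels. Across the 57 tested members, the correlation of log2 values between libraries of a strain was 0.862 to 0.976, against 0.995 to 0.996 across the numbered transcripts, which are not independent points. Across the 54 tested members above 0 in each library it was 0.962 to 0.997.

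Several members were among the transcripts that spread most between libraries. By the deviation of the log2 values from their strain means, 7 members were among the 25 most variable of the 6052 transcripts tested, namely G000016, G000051, G000034, G000004, G000005, G000027 and G000058. The first 3 have libraries at 0, and the other 4 were named after their values were seen. G000004 had 1.82, 0.73 and 9.78 FPKM in A24, against 6.64, 2.8 and 8.10 FPKM in C24. G000005 had 2.28, 1.27 and 9.85 FPKM in A24, against 7.37, 2.42 and 6.58 FPKM in C24. G000027 had 4.51, 3.77 and 20.79 FPKM in A24, against 13.28, 7.72 and 13.66 FPKM in C24.

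These 3 transcripts moved together from library to library. Replicate 3 was the highest of the A24 libraries and replicate 2 was the lowest in both strains. Their deviations from the strain means, compared in pairs, had correlations of 0.966 to 0.984 over the 6 libraries, a description of values that were chosen for their spread. The log2 fold changes were -1.12 (SE 0.78), -0.65 (SE 0.67) and -0.65 (SE 0.55), and none passed by limma (adjusted p = 0.228, 0.407 and 0.318). Without A24 replicate 3 all 3 were lower in A24 past both thresholds, at -2.11, -1.47 and -1.42 (limma adjusted p = 0.00537, 0.0216 and 0.00111). Without A24 replicate 2 they moved towards 0 instead, at -0.32, -0.04 and -0.20 (limma adjusted p = 0.687, 0.958 and 0.758). No other single library left out gave a call for any of the 3, so the sizes depended on which library was dropped. With a replicate block G000004 passed (limma adjusted p = 0.0457).

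G000031, a weaker transcript named after its values were seen, followed the same libraries. It had 1.03, 0.97 and 2.32 FPKM in A24, against 2.82, 2.38 and 2.72 FPKM in C24, and its deviations had a correlation of 0.953 with the mean profile of the 3. How many of all transcripts tested reach such a correlation is not given here. Its A24 libraries all lay below the C24 libraries (log2 fold change -0.93, SE 0.30, limma adjusted p = 0.0219). Without A24 replicate 3 the log2 fold change was -1.31 (limma adjusted p = 0.000606), and without A24 replicates 1 or 2 or C24 replicates 1 or 3 the call was lost (limma adjusted p = 0.0693, 0.0698, 0.0637 and 0.0547). It was also lost with quantile normalization (log2 fold change -0.63, limma adjusted p = 0.0670). Whether the members with this profile share reads or a locus was not tested.

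**Figure D4:**
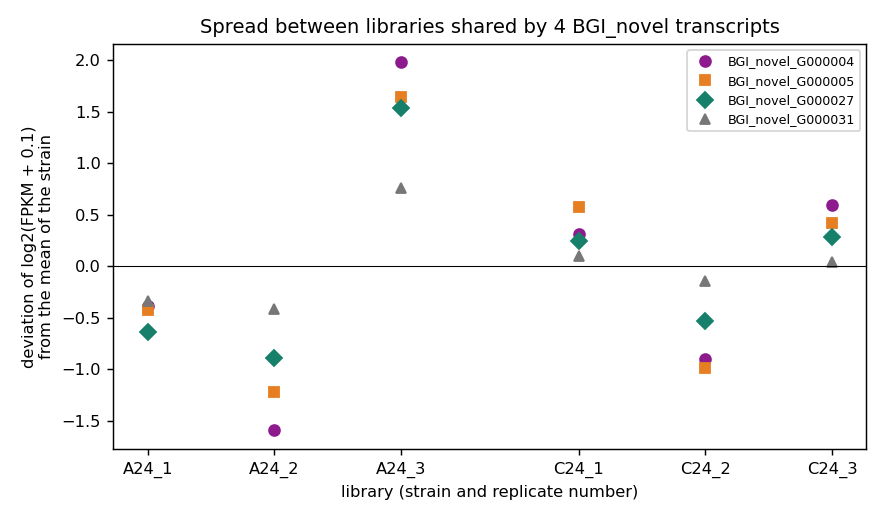
Deviation of log2(FPKM + 0.1) from the mean of its strain in each library, A24 left of C24, for G000004, G000005, G000027 and G000031 (1 point per library and transcript). The points of all 4 are highest in A24 replicate 3 among the A24 libraries and lowest in replicate 2 of both strains.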

How the data were processed

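RNA was extracted with TRIzol, rRNA was removed by the RNase H method, and random-primed libraries were sequenced on the BGISEQ-500. Per the submitters' processing notes and the methods, the authors filtered reads with SOAPnuke and used HISAT2 (2.0.4), Bowtie2 (2.2.5) and RSEM (1.2.12). The deposited values are FPKM for each transcript and library, calculated by the authors and rounded to 2 decimals. The genome build and annotation are not given in the sources used here. The files do not give the number of fragments, and intervals for counting error were left out. From the steps between low values, 1 fragment was worth 0.973 to 1 times as much in each library as in A24 replicate 1, so the libraries had similar depth.

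All 6452 transcripts of the table were used, and 0 columns were left out. Transcripts that averaged 1 FPKM or more over the 6 libraries (6052, with 57 members) were fitted on log2(FPKM + 0.1) with limma 3.58.1 in R 4.3.3, using a trended eBayes step and no replicate block. The added 0.1 tends to draw the log2 fold changes of low transcripts towards 0. The log2 fold change compares means of log values, so a low library can also carry it past the ratio of the mean FPKM. In G000004 it was -1.12, while the A24 mean was 0.703 times the C24 mean. Adjusted p-values are those of Benjamini and Hochberg across the 6052, with thresholds of 0.05 and of 1 for the log2 fold change. The fit was tested on simulated data with independent noise between libraries, for calls past both thresholds. Calls by the adjusted p alone were not covered. Tables and figures were made with Python 3.11.15, pandas 2.3.3 and matplotlib 3.10.9.

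Values by library are given for members past both thresholds, the 10 with the highest mean, the 5 highest and 5 lowest log2 fold changes among members past the adjusted p without overlap, members at 0 in some libraries, and the 5 smallest log2 fold changes. Any other member is said to be named after its values were seen. The alternatives were other pseudocounts (0.01 and 1) and filters (none and 10 FPKM), 3 other scalings, a replicate block, eBayes without a trend, each library left out, and a call written after the NOISeq method named in the study, at a probability of 0.8. The members and lists were chosen with earlier results of these data known.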

Additional observations from a re-analysis of the deposited data

How the results depend on the processing

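Most values kept their direction and their side of the thresholds. Of the values for the whole set under the alternatives, 114 stayed within the limits set for them, 9 moved, 15 were weaker and 4 stronger. The 5 transcripts past both thresholds were judged by both, and the other single transcripts by the adjusted p alone. On that basis 305 values kept direction and call, 22 lost a call, 2 gained one and 11 changed sign, and the gains of G000021 and G000054 past a log2 fold change of 1 are not among the 2. The count of 5 members past both thresholds was 3 with median-of-ratios scaling, 3 to 9 with 1 library left out and 6 with a replicate block. The count past the adjusted p was 36, and 38 with a replicate block. With 1 library left out it was 28 to 39, and 21 to 32 for those lower in A24. The 28 came without C24 replicate 1, where 3675 of all 6052 transcripts passed, and the 39 without A24 replicate 3, where 3938 passed. These changed counts by the adjusted p were all among the 114 within the limits. Deviations of same-numbered libraries had correlations of -0.02, 0.04 and 0.08 over the 6052 transcripts, so the numbers were not taken to pair the samples. Over the 57 members they were -0.19, 0.28 and 0.82, over the 54 above 0 in each library 0.21, 0.77 and 0.73, and over these without G000004, G000005 and G000027 0.63, -0.27 and 0.50. Of the members higher in A24, 1 (G000008) was past both thresholds with a pseudocount of 0.01, no filter, a filter of 10 FPKM, quantile normalization, eBayes without a trend, the NOISeq-style call and without the members at 0 in any library, and 1 to 2 with 1 library left out, and G000034 was the call lost in these cases. Of those lower, 1 passed with median-of-ratios scaling, 5 with equal FPKM totals and 2 to 7 with 1 library left out. With the adjusted p alone, 5 were higher with a filter of 10 FPKM and 14 with median-of-ratios scaling. The cause was not tested, except that the stricter filter left 36 instead of 57 members.

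The members' share of the FPKM total was 0.508% in A24 and 0.805% in C24 without the most abundant member, and 0.261% in A24 and 0.365% in C24 without the 4 most abundant, the second a choice made after seeing the data. The median SD of the members' log2 values was 0.135 in A24 and 0.0893 in C24. With 1 library left out it was 0.0654 to 0.157 in A24, lowest without replicate 3, and 0.0528 to 0.0772 in C24, and with a filter of 10 FPKM it was 0.0735 in C24. The signs of the smallest log2 fold changes were not stable. With median-of-ratios scaling G000020 stood at 0.036, G000022 at 0.049 and G000057 at 0.015, with quantile normalization G000020 stood at 0.11, and with equal FPKM totals G000026 stood at -0.052 and G000029 at -0.055. With 1 library left out G000022 ranged from -0.082 to 0.031 and G000029 from -0.27 to 0.16. With no fragment counts, values under 1 FPKM cannot be given an error beyond the spread of 3 libraries.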

Other observations

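The most abundant members shared an order of their libraries. In 7 of the 10, namely G000055, G000039, G000024, G000036, G000054, G000037 and G000066, the A24 libraries stood in the order replicate 1, 2, 3 and the C24 libraries in the order replicate 1, 3, 2, from high to low. Of the 57 tested members, 9 had this order, or 15.8%, these 7 included. Among all transcripts tested, 4.87% had this order, and 4.14% of the 1907 with at least 100 FPKM. The numbers name the libraries only, and the order was noticed in these data and not tested.

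A root mean square deviation over 0.4 between libraries of a strain was found for 72 tested transcripts. Of these, 3 numbered transcripts, 2911564, 2906182 and 2907044, followed the mean profile of G000004, G000005 and G000027 with a correlation over 0.9. The 3 members are among the 72 and make up the profile, so their own correlations with it are not counted. G000031, at 0.387, lay under the limit of 0.4. The transcript 2911564 had 1.12, 0.92 and 3.95 FPKM in A24, against 2.5, 2.14 and 3.82 FPKM in C24. The transcript 2907044 had 15.99, 10.95 and 29.84 FPKM in A24, against 23.81, 23.05 and 25.4 FPKM in C24. Of 6 other members examined, named after their values were seen, the correlation to the profile was 0.985 for G000002, 0.953 for G000031, 0.891 for G000029, 0.831 for G000003, 0.756 for G000046 and 0.735 for G000047. G000002 had 0.09, 0.05 and 1 FPKM in A24, against 0.79, 0.19 and 0.84 FPKM in C24.

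The members with numbers 36 to 42 were lower in A24 past the adjusted p in 6 of 7 cases, beside 47.4% of the tested members and 40.4% of all transcripts tested. The stretch was chosen after its values were seen, and what the numbering follows is not stated.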
